A study of Mus musculus with 2 samples.

Results

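The barcodes described here carried transcripts of natural killer (NK) cells and of tumour cells at the same time. They were chosen from measured values: a barcode, the tag that all RNA captured in 1 microwell shares, was taken as mixed when 2 groups of genes both passed a threshold. The first share, the part of its UMIs (unique molecular identifiers, 1 per captured transcript) from Col1a1, Col1a2, Sparc, Cald1, Pcolce and Lrp1, had to be at least 0.15%, and the second share, that from Gzma, Gzmb, Nkg7 and Tyrobp, at least 0.8%. A total of 748 of 20821 barcodes met both conditions. The IL-15SA library held 188 of them among 8386 barcodes (2.24%; Clopper-Pearson 95% limits 1.94 and 2.58%). The IL-15SA+IL-21Fc library, called the combination library below, held 560 among 12435 (4.5%; 4.15 and 4.88%).

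Both libraries held NK cells sorted as CD45.2+ CD3- NKp46+ from CT26_b2m-/- colon carcinoma tumours grown in mice. CT26 is an established mouse colon carcinoma line, and the -/- marks loss of B2m, the light chain of MHC class I. The groups are named IL-15SA and IL-15SA+IL-21Fc in the sample titles, after the agents they received. Both groups share the tumour line and the sort, and the labels used here give no dose, time, age or strain. Cells of 1 treatment group were pooled before capture on a microwell chip, so each group was 1 library with no replicate and no test between groups was possible. Intervals cover counting error only, and a difference between the libraries cannot be told apart from a difference between 2 pools of cells.

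NK cells are cytotoxic lymphocytes that kill target cells by releasing perforin and granzymes, and NKp46, the product of Ncr1, is an activating receptor that marks them in mice. Tumour cells and fibroblasts make collagens and other matrix proteins, and adherent cells on a stiff matrix use YAP, a coactivator that binds DNA through TEAD factors, to switch on genes such as Ankrd1 and Cyr61. A sort on CD45.2 and NKp46 is meant to leave tumour cells out. One barcode can hold RNA of more than 1 cell, or free RNA together with that of a cell.

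Mixed barcodes were set beside 2 references from the same library. The NK reference was every barcode with an Ncr1 UMI and a first share under 0.15%, 7550 and 10309 barcodes in the IL-15SA and combination libraries. The tumour reference was every barcode with a first share of at least 0.15% and a second share under 0.8%, 186 and 763 barcodes. The other 462 and 803 barcodes had neither an Ncr1 UMI nor the first share. A level is given in CPM: UMIs of a gene summed over all barcodes of a class, scaled to a class total of 1000000. Mixed barcodes held 435999 and 1071003 UMIs in all, 1.41% and 3.03% of their libraries. In these files B2m, lost by label in the tumour line, stood at 4713 and 4459 CPM in the tumour reference and 4546 and 5079 CPM in the NK reference. How the gene was disrupted is not given in the sources used here, so these UMIs check nothing about the knockout.

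**Figure D1:**
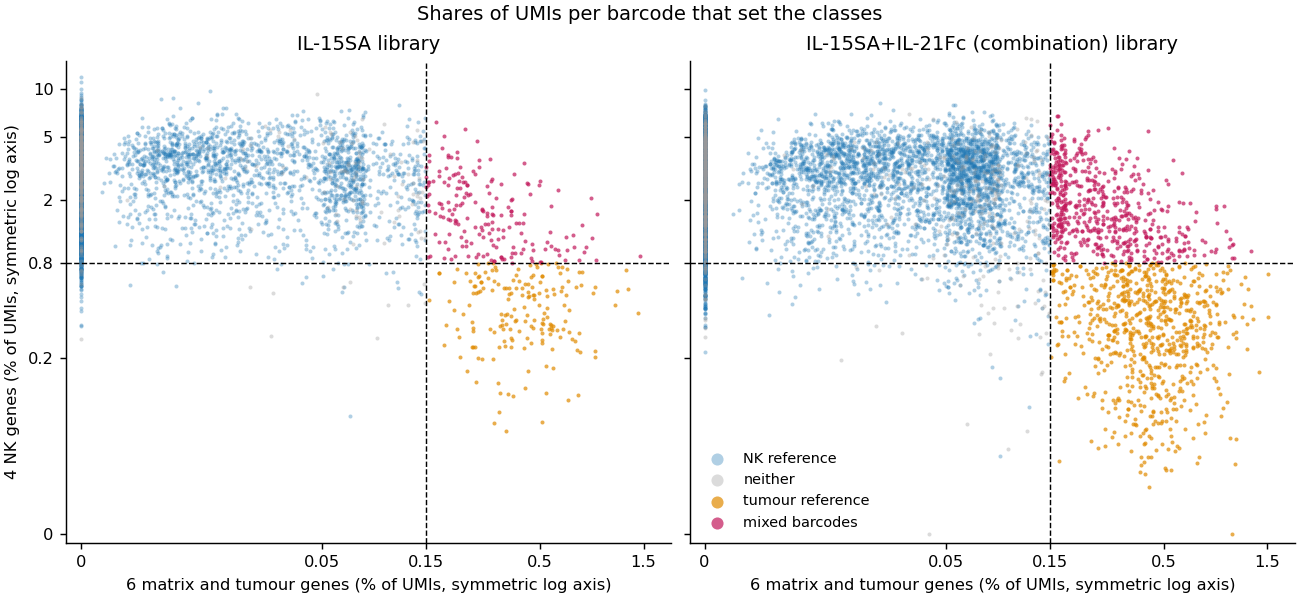
Each point is 1 barcode, with the share of its UMIs from the 6 matrix and tumour genes on the horizontal axis and from the 4 NK genes on the vertical axis, both in percent on symmetric log axes. Dashed lines mark the thresholds of 0.15% and 0.8%, and the 188 and 560 mixed barcodes fill the upper right corner with no gap to the tumour reference below them.

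The thresholds cut through continuous values. Mixed barcodes had a median first share of 0.270% and 0.241% and a median second share of 1.6% and 1.67%. Just inside the first threshold, at 0.15 to 0.2%, lay 45 and 207 mixed barcodes, with Ncr1 at 961 and 1280 CPM. Just outside it, at 0.1 to 0.15%, lay 154 and 285 barcodes with Ncr1 at 1206 and 1513 CPM. Just inside the second threshold, at 0.8 to 1.0%, were 39 and 75 barcodes with Ncr1 at 420 and 625 CPM, and just outside it, at 0.6 to 0.8%, were 43 and 118 with Ncr1 at 342 and 481 CPM. Neither edge was marked by a gap in the values, so the class is a range set by its thresholds.

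Few transcripts placed a barcode in the class. The 6 genes of the first share gave a mixed barcode a median of 5 and 4 UMIs and never fewer than 2. Of the IL-15SA mixed barcodes 54 (28.7%), and of the combination ones 238 (42.5%), rested on 3 UMIs or fewer of these genes, while 80 (42.6%) and 164 (29.3%) held at least 6. The same genes left at least 1 UMI in 23.4% and 31.2% of the NK reference, and the 4 NK genes left a UMI in 100% and 99.9% of the tumour reference. Transcripts of each side were thus also present at a low level in barcodes of the other side. The part of free RNA in the mixed class was not tested.

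Mixed barcodes held fewer UMIs than either reference. Their median was 1719 UMIs (quartiles 1438 to 2259, highest 18781) in the IL-15SA library against 3193 in the NK reference and 3405 in the tumour reference. The combination library gave 1427 (1233 to 1844, highest 13389) against 2447 and 2976. The smallest mixed barcodes held 1294 and 1124 UMIs, next to the smallest NK reference barcodes at 1292 and 1123. Genes detected per barcode followed, with medians of 933 and 801.5 in mixed barcodes, 1330 and 1095 in the NK reference, and 1563 and 1404 in the tumour reference. Of the mixed barcodes 166 (88.3%) and 474 (84.6%) lay below the NK reference median.

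Mixed barcodes were most common among shallow barcodes. Below 1500 UMIs they made up 60 of 848 barcodes (7.08%) in the IL-15SA library and 317 of 2275 (13.9%) in the combination library. From 1500 to under 2000 UMIs their share was 5.31% and 5.09%, from there to under 3000 it was 1.66% and 1.89%, and from 3000 to under 5000 it was 0.707% and 1.00%. At 5000 UMIs or more it was 0.378% in the IL-15SA library and 1.80% in the combination library, where the deepest barcodes did not have the lowest share. At the lowest depths fewer UMIs are enough to pass a threshold set as a share, and the part of this in the depth of the class was not tested.

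Measures of RNA quality lay in part between the references. The median mitochondrial share of UMIs was 1.95% and 1.81% in mixed barcodes, 1.26% and 1.41% in the NK reference, and 2.52% and 2.76% in the tumour reference. Malat1, a nuclear long noncoding RNA, took a median of 0.856% and 0.760% of UMIs in mixed barcodes, above both the NK reference (0.665% and 0.702%) and the tumour reference (0.293% and 0.281%). The doublet score of Scrublet had a median of 0.118 and 0.141 in mixed barcodes, 0.0952 and 0.102 in the NK reference, and 0.0649 and 0.0644 in the tumour reference. Among the 5% of barcodes with the highest score in each library were 18 (9.57%) and 90 (16.1%) mixed barcodes, against 4.26% and 3.65% of the NK reference. The part of doublets in the class was not tested.

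**Figure D2:**
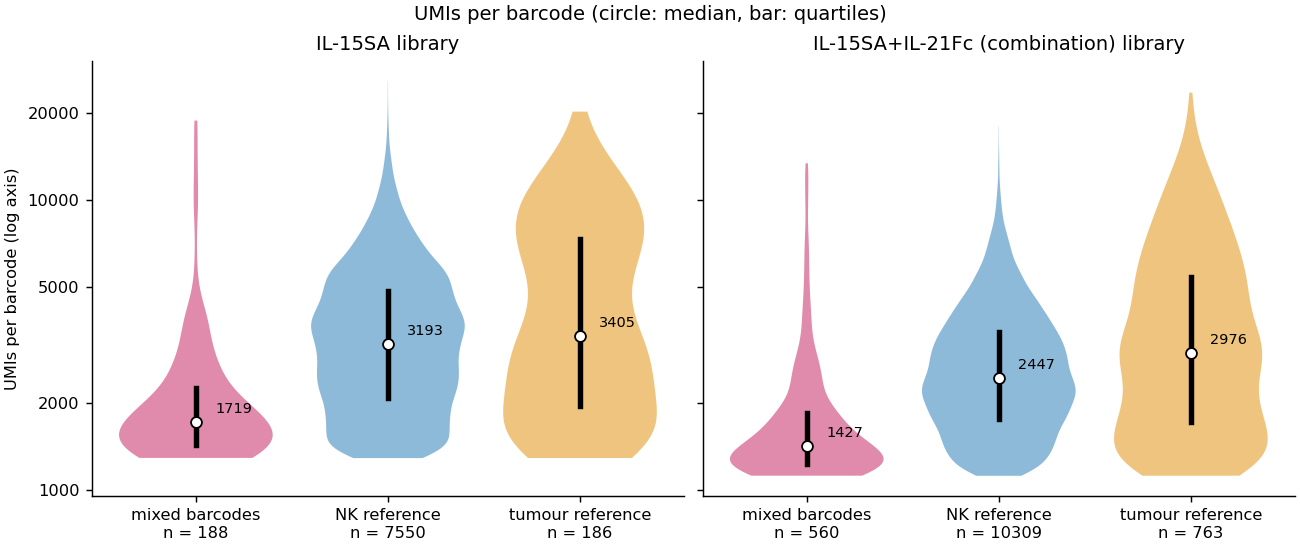
Violins show UMIs per barcode on a log axis for the 3 classes of each library, with a circle at the median and a bar over the quartiles. Mixed barcodes have the lowest median in both libraries, 1719 and 1427 UMIs.

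Of the 4 named markers, Ncr1 and Cald1 are tied to the rules and are given as a description. Ncr1, the NKp46 receptor gene, stood at 766 CPM in the IL-15SA mixed barcodes, 1521 in the NK reference and 185 in the tumour reference, and at 1003, 1641 and 176 CPM in the combination library. At least 1 Ncr1 UMI was found in 136 (72.3%) and 404 (72.1%) mixed barcodes and in 57.0% and 44.4% of the tumour reference. Since an Ncr1 UMI defines the NK reference, its level there is fixed in part by that rule. Cald1, which encodes the actin-binding protein caldesmon and is 1 of the 6 genes of the first share, was at 573 and 483 CPM in mixed barcodes, 15.5 and 23.9 in the NK reference and 800 and 815 in the tumour reference. In mm10 with the GENCODE M21 annotation, Ncr1 (ENSMUSG00000062524) lies on chromosome 7 from 4337724 to 4345164 and Cald1 (ENSMUSG00000029761) on chromosome 6 from 34598500 to 34775473, both on the plus strand.

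Ankrd1 and Myof, which the rule did not use, were present but did not exceed the tumour reference. Ankrd1 (ENSMUSG00000024803; chromosome 19, 36111961 to 36120099, minus strand) encodes an ankyrin repeat protein known as a YAP target. It was at 101 CPM (95% Poisson interval 73.3 to 135) in the IL-15SA mixed barcodes, 4.59 in the NK reference and 173 in the tumour reference. In the combination library it was at 84.0 CPM (67.6 to 103), 8.86 and 155. The mixed level was thus 22 times (15.3 to 31.2) and 9.48 times (7.38 to 12.1) that of the NK reference and 0.583 (0.408 to 0.818) and 0.541 (0.427 to 0.679) of the tumour reference. Its UMIs were few, 44 in 27 barcodes and 90 in 57. Myof (ENSMUSG00000048612; chromosome 19, 37899036 to 38043577, minus strand), encoding the membrane repair protein myoferlin, was at 124 CPM against 3.68 and 165 in the IL-15SA library, and at 103 CPM against 7.44 and 174 in the combination library. Its ratio to the tumour reference was 0.753 (0.541 to 1.03), an interval that reaches 1, and 0.590 (0.476 to 0.725).

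Ankrd1 and Myof are on a list of known YAP and TEAD target genes, of which 21 had a row in the files. At 20 CPM or more in some class, 10 of them were measured in the IL-15SA library and 8 in the combination library. Of these, 9 and 7 were at least 1.5-fold higher in mixed barcodes than in the NK reference, with 1 CPM added to each level. The background was high: over all 7222 genes measured in the IL-15SA library, 30.9% were at least 1.5-fold higher and 12.7% lower than in the NK reference, and over 6921 in the combination library 22.7% were higher and 6.6% lower. The list's median log2 ratio to the NK reference was 3.67 and 1.89, beside 0.17 and 0.12 for all genes. To the tumour reference it was -0.42 and -0.65, beside -0.05 and -0.12, and 4 genes in each library were at least 1.5-fold lower. In the IL-15SA library 3 of the 10 were at least 1.5-fold higher than in the tumour reference, and in the combination library 0 of 8. The same 3, Igfbp3, Crim1 and Ccdc80, were at least 1.5-fold above both references, of 9 tested (4.55% of all genes tested), on 18, 26 and 10 UMIs. Between the references lay 6 genes in each library. Of all genes, 20.4% were higher and 19.9% lower than in the tumour reference in the IL-15SA library, and 19.4% higher and 20.7% lower in the combination library.

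Single members of the list show its levels. Cyr61, the matricellular protein CCN1, was at 700 CPM in the IL-15SA mixed barcodes, between 33.8 in the NK and 1282 in the tumour reference, and at 369 between 38.4 and 912 in the combination library. Axl, a receptor tyrosine kinase, was at 106 CPM in the mixed barcodes of both libraries, between 6.90 and 202 in the first and 12.4 and 221 in the second. Asap1, an activator of the GTPase activity of Arf proteins, was at 68.8 between 31.6 and 93.0 and at 57.0 between 34.7 and 83.9. Crim1, a membrane protein that binds growth factors of the BMP family, was higher: at 59.6 CPM it was above both 16.6 and 23.5 in the IL-15SA library, on 26 UMIs. It was at 32.7 CPM against 20.6 and 22.2 in the combination library, where its ratio to the tumour reference was 1.47 (0.95 to 2.24).

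The letters GGAATG, the core of the sequence that TEAD factors bind, were searched on both strands of RefSeq promoters (build GRCm38.p6), 300 bases from 250 before to 50 after a gene's start. A promoter was found for 14 of the 21 listed genes, and 6 held the letters: Ankrd1, Cyr61, Amotl2, Axl, Crim1 and Ptpn14. Of all 32851 promoters 14.7% held them. The promoters of the 2 markers and of Cyr61, the most abundant gene of the list, are shown 5′ to 3′ on the strand of the gene, with GGAATG or its reverse complement CATTCC in capitals. They lie at chr19:36119795-36120094 (Ankrd1), chr3:145649936-145650235 (Cyr61) and chr19:38043528-38043827 (Myof), all on the minus strand.
Ankrd1: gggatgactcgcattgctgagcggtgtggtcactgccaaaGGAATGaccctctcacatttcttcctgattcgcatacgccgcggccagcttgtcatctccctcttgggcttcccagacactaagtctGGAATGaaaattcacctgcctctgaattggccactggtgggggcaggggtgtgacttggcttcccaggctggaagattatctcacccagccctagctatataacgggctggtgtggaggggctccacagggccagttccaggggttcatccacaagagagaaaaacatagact
Cyr61: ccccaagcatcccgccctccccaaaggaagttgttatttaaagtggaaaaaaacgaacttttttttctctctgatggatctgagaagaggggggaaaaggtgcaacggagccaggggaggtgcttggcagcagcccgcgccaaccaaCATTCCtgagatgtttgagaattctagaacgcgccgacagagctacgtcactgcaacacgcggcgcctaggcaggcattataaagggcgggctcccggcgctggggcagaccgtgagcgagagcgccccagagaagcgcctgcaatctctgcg
Myof: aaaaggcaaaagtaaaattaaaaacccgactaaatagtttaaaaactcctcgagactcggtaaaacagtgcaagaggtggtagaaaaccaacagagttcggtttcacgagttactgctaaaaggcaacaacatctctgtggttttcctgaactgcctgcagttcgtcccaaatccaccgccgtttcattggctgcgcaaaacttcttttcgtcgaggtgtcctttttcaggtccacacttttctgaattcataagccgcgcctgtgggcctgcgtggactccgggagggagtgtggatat
The Ankrd1 promoter held the letters 2 times and that of Cyr61 once, and that of Myof did not hold them in this window. A match describes the sequence and shows no binding.

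Matrix genes outside the rule lay between the references. Of 28 listed genes, 10 and 9 had 0 UMIs in mixed barcodes. All 12 measured in the IL-15SA library and all 11 in the combination library lay between the references (57.9% and 67.9% of all measured genes). Of genes at least 5-fold higher in the tumour than in the NK reference 93.0% and 98.9% did, so such a count is common. All were at least 1.5-fold above the NK reference (30.9% and 22.7% of all), with median log2 ratios of 3.98 and 3.10. To the tumour reference the medians were -0.69 and -0.89, and 7 and 8 genes were at least 1.5-fold lower (19.9% and 20.7% of all). Fn1, which encodes fibronectin, was at 310 CPM between 8.68 and 547 in the IL-15SA library and at 248 between 19.9 and 461 in the combination library. Serpinh1, the collagen chaperone HSP47, was at 376 between 16.7 and 676 and at 245 between 27.7 and 586. Lamb1, a laminin chain of basement membranes, was at 108 CPM beside 110 in the tumour reference of the IL-15SA library, but at 56.0 beside 108 in the combination library. Other tumour genes that the rule did not use took the same position. Rhox5, a homeobox gene of reproductive tissue that CT26 cells express, was at 335 CPM between 16.5 and 658 and at 262 between 32.8 and 621.

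Genes of the actin cytoskeleton and focal adhesions, through which adherent cells hold on to matrix, were between the references for 21 and 20 of 24 measured genes. Of all measured genes 57.9% and 67.9% lay between, and of those that differed at least 1.5-fold between the references 79.0% and 89.6%, so such a count is common. Of the 24, 15 and 17 were at least 1.5-fold above the NK reference and 10 and 12 at least 1.5-fold below the tumour reference, with median log2 ratios of 1.66 and 1.52, and -0.30 and -0.63. Vim, which encodes the intermediate filament vimentin, was at 1991 CPM between 315 and 3423 and at 1441 between 399 and 2889. Lmna, which encodes the nuclear lamins A and C, was at 1216 between 158 and 1883 and at 729 between 226 and 1443. Plec, which encodes the cytoskeletal linker plectin, was close to its tumour level in the IL-15SA library, at 234 CPM beside 267, and at 152 beside 226 in the combination library. Cav1, the main protein of caveolae, was at 174 between 6.72 and 289 and at 120 between 13.8 and 288. Myh9, a non-muscle myosin used by both cell types, was at 172 and 188 CPM, beside 175 and 165 in the NK reference and 111 and 105 in the tumour reference.

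Listed NK identity genes outside the 2 shares were present at a reduced level. All 24 measured ones lay between the references in both libraries (57.9% and 67.9% of all measured genes). Of genes at least 5-fold higher in the NK than in the tumour reference 97.4% and 98.3% did, so this position is common. All 24 were at least 1.5-fold above the tumour reference (20.4% and 19.4% of all), with median log2 ratios of 2.24 and 2.5. Relative to the NK reference the medians were -0.88 and -0.59. At least 1.5-fold lower there were 21 genes in the IL-15SA library but 12 in the combination library (12.7% and 6.6% of all). The list includes Ncr1, whose UMI defines the NK reference. Prf1, which encodes the pore-forming protein perforin, was at 858 CPM between 156 in the tumour and 1903 in the NK reference, and at 954 between 129 and 1422. Ptprc, which encodes CD45, the antigen of the sort, was at 1709 between 304 and 3073 and at 2281 between 376 and 3316. Klrk1, which encodes the activating receptor NKG2D, was at 216 between 49.2 and 396 and at 350 between 53.7 and 483. Eomes, a transcription factor of NK cell maturation, was among the lowest relative to the NK reference, at 39.0 CPM beside 116 and at 60.7 beside 115. Ccl5, a chemokine that NK cells secrete, was close to its reference level, at 2761 CPM beside 3353 and at 7093 beside 7982.

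**Figure D3:**
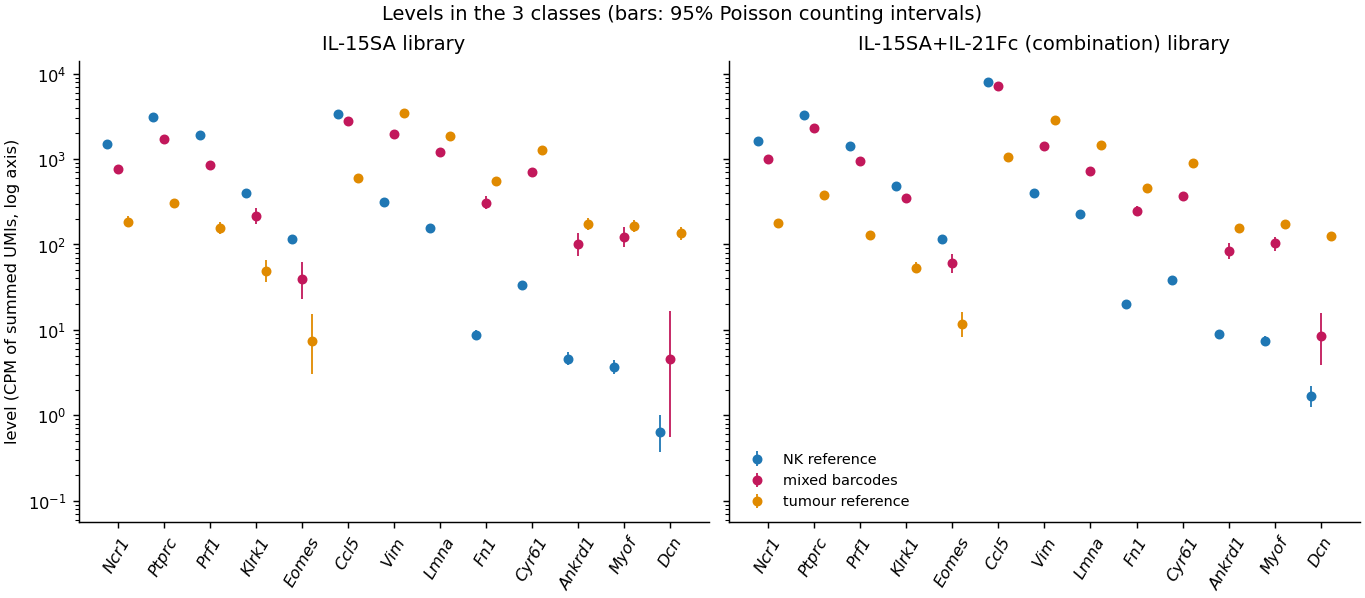
Levels in CPM on a log axis for NK genes (Ncr1 to Ccl5) and tumour genes (Vim to Dcn) in the 3 classes of each library, with 95% Poisson intervals that cover counting error only. Mixed barcodes lie between the references for every gene shown, and of the tumour genes Dcn lies furthest below its tumour reference level.

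Genes that told the references apart were at a reduced level on both sides, and how far on each side differed between the libraries. NK-specific genes were those at 20 CPM or more in the NK reference and at least 5 times their tumour reference level, leaving out the 10 genes of the rule, and tumour-specific genes were defined in the same way from the other side. The 426 NK-specific genes of the IL-15SA library were at a median of 0.545 of the NK reference (quartiles 0.451 to 0.667), and the 461 of the combination library at 0.667 (0.592 to 0.748). Tumour-specific genes were at a median of 0.554 of the tumour reference over 732 genes (0.429 to 0.697) and 0.484 over 632 genes (0.416 to 0.571). The 2 parts summed to 1.10 and 1.15, and in the combination library the quartiles of the NK part lay above those of the tumour part. The balance follows the thresholds: with a first share of at least 0.3% the NK and tumour parts were 0.397 and 0.73 in the IL-15SA library and 0.471 and 0.689 in the combination library, and with a second share of at least 1.6% they were 0.761 and 0.335, and 0.823 and 0.305. The references were themselves not free of the other side, since NK-specific genes stood at 0.118 and 0.124 of their NK level in the tumour reference and tumour-specific genes at 0.0442 and 0.0664 of their tumour level in the NK reference.

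In UMIs per barcode the same genes gave less than the references on both sides. A mixed barcode held a median of 138.5 and 157 UMIs of NK-specific genes, against 460 and 392 in the NK reference and 70 and 62 in the tumour reference. It held 101 and 50 UMIs of tumour-specific genes, against 334.5 and 249 in the tumour reference and 23 and 17 in the NK reference. Almost every specific gene lay between the references: 415 (97.4%) and 453 (98.3%) of the NK-specific genes and 681 (93.0%) and 625 (98.9%) of the tumour-specific ones. Since these genes were chosen for a gap of at least 5-fold between the same references, that position is largely set by the choice. Of all genes that differed at least 1.5-fold between the references, 3232 of 4089 (79.0%) and 3531 of 3940 (89.6%) lay between them. A further 583 and 271 were at or above the higher reference, and 274 and 138 at or below the lower.

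Single genes departed from the common ratio. Among tumour-specific genes at 100 CPM or more, Slit2, a guidance ligand, was high in mixed barcodes in both libraries, at 0.736 and 0.733 of the tumour reference. Ogn, which encodes the matrix proteoglycan osteoglycin, was at 142 CPM beside 133 (ratio 1.07, limits 0.778 and 1.47) with IL-15SA and at 0.542 of the tumour level in the combination library. The lowest was Dcn, the proteoglycan decorin that fibroblasts make in quantity. It was at 4.59 CPM on 2 UMIs beside 135 in the tumour reference (ratio 0.0341, interval 0.00408 to 0.126) and at 8.40 CPM on 9 UMIs beside 126 (0.0668, 0.0303 to 0.128). A Dcn UMI was found in 1.06% and 1.07% of mixed barcodes and in 3.76% and 2.36% of the tumour reference. The Dcn intervals count UMIs, which came from few barcodes, so they do not cover the spread between barcodes.

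Saa3 and Lcn2, acute phase proteins that stromal and myeloid cells secrete in inflammation, were likewise near 0. Saa3 had 2 UMIs in the IL-15SA mixed barcodes and 0 in those of the combination library, whose tumour reference held 408 UMIs (130 CPM). Lcn2 had 1 and 2 UMIs, beside 64.1 and 39.7 CPM in the tumour reference. These genes were thus at or near 0 in the mixed class, while the matrix and CT26 genes above were not. For Dcn this contrast rests on few barcodes of the tumour reference. For Saa3 a reference level is given in the combination library only. The number of reference barcodes behind Saa3 and Lcn2 is not given here. Other secreted genes of the list were present. Ccl2, a chemokine for monocytes, was at 1433 and 755 CPM beside 2578 and 1426 in the tumour reference. Mt1, a metal-binding metallothionein, was at 1837 and 1367 CPM beside 4138 and 2867, and Ptgs2, the inducible cyclooxygenase, at 200 and 106 beside 377 and 184.

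Markers of other cell types were mostly at 0 or no higher in sum than in 1 of the references. Of 11 macrophage markers found in the files, 10 and 6 had 0 UMIs in mixed barcodes, among them Csf1r, Lyz2 and C1qa, and the list summed to 22.9 and 28.9 CPM beside 30.3 and 40.8 in the NK reference and 10.7 and 19.1 in the tumour reference. Neutrophil markers summed to 18.4 and 16.8 CPM (6 and 5 of 8 at 0), dendritic cell markers to 22.9 and 30.8 (5 and 5 of 8 at 0), and B cell markers to 34.4 and 53.2 (4 and 4 of 6 at 0). Endothelial markers summed to 43.6 and 62.6 CPM with 7 and 6 of 8 at 0. T cell markers reached 904 and 1033 CPM, under the 1473 and 1612 of the NK reference, with Cd3e and Cd8a at 0 UMIs. Fibroblast and pericyte markers summed to 601 and 444 CPM, between 1034 and 778 in the NK reference and 377 and 321 in the tumour reference, with 6 and 5 of 10 at 0. Most of that sum was Thy1 (548 and 395 CPM), a surface protein also high in the NK reference (1031 and 771 CPM), and Pdpn, a mucin-like protein of stroma, was at 41.3 and 28.9 CPM beside 98.3 and 88.3 in the tumour reference. Epithelial markers summed to 50.5 and 28.9 CPM, above both references in the IL-15SA library, beside 37.4 and 47.3 in the tumour reference and 10.2 and 8.52 in the NK reference, with 4 and 4 of 7 at 0. The list of innate lymphoid cells type 1, relatives of NK cells that also carry NKp46, summed to 984 and 944 CPM, above 236 and 296 in the NK reference and below 1470 and 1682 in the tumour reference. That sum came mostly from Tmem176a (310 and 350 CPM) and Tmem176b (622 and 500 CPM), membrane proteins whose levels were 604 to 937 CPM in the tumour reference, while Il7r had 1 and 10 UMIs.

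Genes above both references were few. A gene was counted when its mixed level, with 1 CPM added, was at least 1.5 times the larger reference, among genes with at least 20 CPM and 10 UMIs in mixed barcodes. In the IL-15SA library 265 of 5820 genes (4.55%) passed and in the combination library 55 of 5958 (0.923%). A gene entered this count by its level in mixed barcodes, the class with the fewest UMIs. Counting error there can thus carry a gene both through the filter and above the references. The counts depended on the thresholds: they were 304 and 302 with a first share of at least 0.3%, 138 and 170 with a second share of at least 1.6%, and 89 and 16 when each gene was counted without the barcode that held most of its UMIs. The order of the libraries was thus not kept. No replicate stands behind these counts, and most rested on little material. The median gene counted in the IL-15SA library had 15 UMIs, beside 24 for all genes tested, and 206 of the 265 (77.7%) had 20 or fewer. In the combination library the medians were 26 and 56. A single barcode held at least 25% of the UMIs of 43 and 3 of the counted genes. Igfbp3, which encodes a carrier of insulin-like growth factors and is on the YAP and TEAD list, entered on 18 UMIs that were all in 1 barcode.

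**Figure D4:**
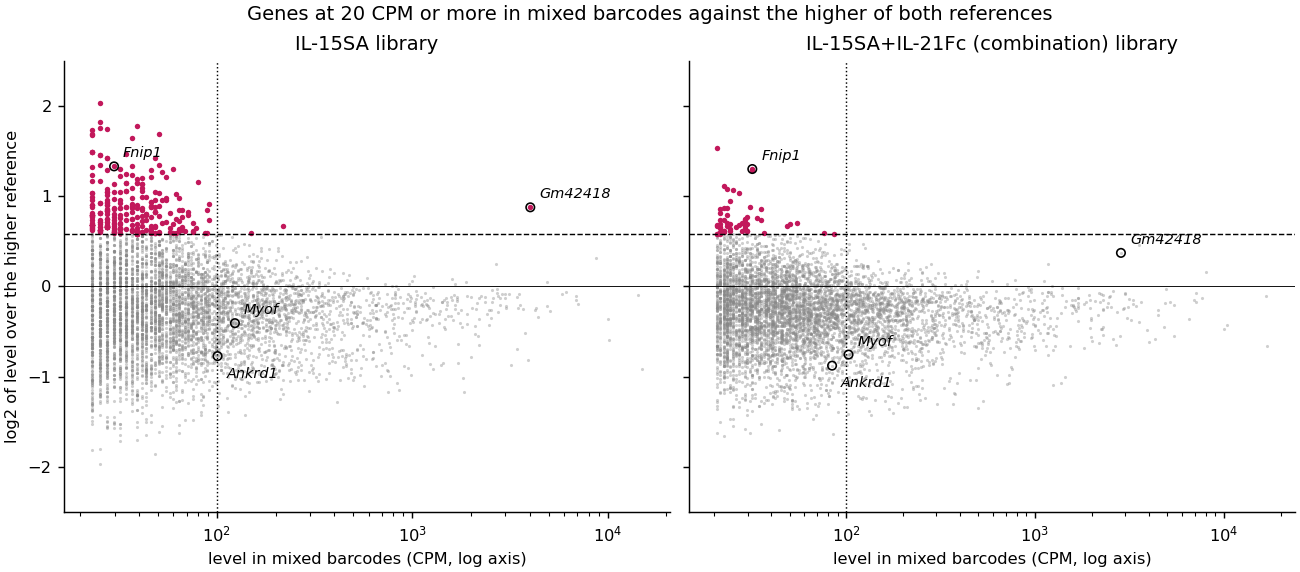
Each point is a gene at 20 CPM or more in mixed barcodes, with its level in CPM (log axis) against the log2 ratio, with 1 CPM added, to the higher of both references. Points above the dashed line are the 265 and 55 genes at least 1.5-fold above both; they crowd at the lowest levels, and right of the dotted line at 100 CPM stand 3 in the IL-15SA library and 0 in the combination library.

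Among abundant genes the list nearly emptied. At 100 CPM or more, 3 of 1624 genes were above both references in the IL-15SA library: Gmfb, Psma6 and Gm42418. Of 1582 such genes in the combination library the count was 0. Psma6, a subunit of the proteasome, was at 218 CPM beside 137 in the NK and 131 in the tumour reference, but at 156 beside 120 and 158 in the combination library. Gm42418, a noncoding RNA gene on chromosome 17 from 39846958 to 39848788, was at 4021 CPM beside 1623 and 2188. In the combination library it was at 2851 CPM beside 1614 and 2202, a ratio of 1.29 (1.24 to 1.35) to the larger reference. This gene followed depth within the class: it took 7428 and 4065 CPM in mixed barcodes under 1500 UMIs, 3906 and 2547 from 1500 to under 3000, and 2295 and 1565 at 3000 or more. Malat1 and mt-Rnr2, the large mitochondrial ribosomal RNA, were above both references in both libraries by less than 1.5-fold, at 8674 and 8071 CPM and at 2688 and 3554 CPM.

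The 2 libraries shared 7 genes above both references of 5245 tested in both (0.133%), which were 2.64% of the longer list and 12.7% of the shorter. Fnip1, a partner of the tumour suppressor folliculin, led them at 29.8 CPM beside 11.2 and 8.55, and at 31.7 beside 12.3 and 11.8. In the combination library 16 of its 34 UMIs were in 1 barcode. Trps1, a GATA-type transcriptional repressor, was at 32.1 beside 8.30 and 20.3 and at 24.3 beside 10.8 and 15.6. Cep192, which builds centrosomes, was at 27.5 beside 15.9 and 10.7 and at 28.9 beside 12.8 and 16.8. Ubr1, a ubiquitin ligase, was at 32.1 beside 18.1 and 20.3 and at 28.9 beside 17.7 and 16.8. Arl15, a small GTPase, Ric1, which acts in Golgi traffic, and the gene model Gm26887 completed the set. None of the 6 with a gene name exceeded 32.1 CPM in mixed barcodes of either library.

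Few genes of the IL-15SA list, 7 in all, were also at least 1.5-fold above both references in the other library. Of the 265, 125 were abundant enough to be tested there, with a median ratio to the larger reference of 1.01. Of these, 63 were above 1 and 54 lay between the references. The median over all genes tested there was 0.814. Of the 55 genes of the combination library, 19 could be tested in the IL-15SA library, with a median of 1.34. On the interferon list, 3 of 18 tested genes were above both references in the IL-15SA library (4.55% of all genes tested). In the combination library the count was 0 of 18 (0.923% of all). The 3 were Ifit2, Rsad2 and Ddx58, which act against viruses, on 18, 11 and 27 UMIs. The list's median log2 ratio was 0.86 and 0.35 to the NK reference and -0.21 and 0.12 to the tumour reference. Between the references lay 12 of 19 and 10 of 18 measured genes (57.9% and 67.9% of all). Below both references the filter was 20 CPM or more in each reference, so the number of such genes cannot be set beside the number above. Genes below both references were 117 of 4417 (2.65%) and 24 of 4459 (0.538%). A single gene, Rsl24d1, a factor of ribosome assembly, was in both (1 of 4229, 0.0236%), at 9.17 CPM beside 30.1 and 23.5 and at 15.9 beside 24.5 and 27.6.

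Lists of cell states lay near or between the references. MHC class I genes, carried by both cell types, had median log2 ratios to the NK reference of 0.00 and -0.03, and B2m itself was at 4892 and 4966 CPM in mixed barcodes. All 21 immediate early genes in the IL-15SA library and 20 of 21 in the combination library were between the references (57.9% and 67.9% of all measured genes), with medians of 0.72 and 0.27 to the NK reference and -0.25 and -0.26 to the tumour reference. Of genes that differed at least 1.5-fold between the references, 79.0% and 89.6% lay between. Genes of G2 and M phase had medians of 0.40 and 0.19, and those of S phase -0.29 and -0.15, to the NK reference. Of 18 G2 and M phase genes in the IL-15SA library, 8 were at least 1.5-fold higher than in the NK reference and 0 lower (30.9% and 12.7% of all). In the combination library 1 was higher and 2 lower (22.7% and 6.6% of all). Mki67, a proliferation marker, went against the median of its list. It was at 135 and 98.0 CPM, beside 172 and 143 in the NK and 105 and 79.7 in the tumour reference. Lysosome and phagocytosis genes had medians of 1.22 and 0.75 to the NK reference and -0.59 and -0.74 to the tumour reference, and 10 of 11 lay between. Lamp1, a membrane protein of lysosomes that NK cells also expose when they degranulate, was at 282 and 233 CPM between 121 and 123 in the NK reference and 425 and 413 in the tumour reference.

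How often an NK and a tumour transcript met in 1 barcode depended on the pair of genes. When each barcode was thinned to 1000 UMIs, which left 0 barcodes out, both Ptprc and Vim were found in 51.1% (43.7 to 58.4%) of the IL-15SA mixed barcodes, 24.1% of the NK reference and 28.0% of the tumour reference. In the combination library these were 44.5% (40.3 to 48.7%), 28.3% and 30.7%. Without thinning they were 72.9%, 56.1% and 68.3%, and 63.4%, 54.8% and 62.6%, at the unequal depths given above. Vim alone was found after thinning in 25.9% and 30.4% of the NK reference. For Ptprc with Ankrd1 the thinned shares were 4.26% (1.85 to 8.21%) and 4.46% (2.91 to 6.52%) in mixed barcodes, 0.503% and 0.805% in the NK reference and 4.84% and 5.11% in the tumour reference. For Ncr1 with Ankrd1 they were 3.19% and 2.5% in mixed barcodes, 0.45% and 0.737% in the NK reference and 2.15% and 3.15% in the tumour reference. The pairs with Ankrd1 were thus no more frequent in mixed barcodes than in the tumour reference beyond counting error. Ptprc with Vim was more frequent there, but a higher level of NK genes was in part fixed by the rule. Ptprc alone was found after thinning in 74.5% and 82.0% of mixed barcodes and in 30.6% and 36.3% of the tumour reference. Vim alone went the other way, with 72.9% and 58.4% against 91.9% and 87.3%. Ncr1 was found after thinning in 52.1% and 57.3% of mixed barcodes, 78.3% and 81.2% of the NK reference and 18.3% and 18.1% of the tumour reference. Ankrd1 was found in 8.51% and 6.07% of mixed barcodes, 0.556% and 0.912% of the NK reference and 13.4% and 13.5% of the tumour reference.

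The mixture differed widely within the class. Of the IL-15SA mixed barcodes, 94 had a second share under 1.6%, 44 one of 1.6 to 2.4% and 50 a higher one, and in the combination library these were 265, 130 and 165. From the lowest to the highest bin, the median ratio of NK-specific genes to the NK reference was 0.394, 0.587 and 0.871 in the IL-15SA library and 0.513, 0.698 and 0.918 in the combination library. That of tumour-specific genes to the tumour reference was 0.706, 0.480 and 0.195, and 0.644, 0.439 and 0.172. Both gene sets came from references defined by the same 2 shares. Opposite trends across these bins thus follow in part from that choice and are given as a description. The median mitochondrial share fell in step from 2.58% over 1.79% to 1.48%, and from 2.28% over 1.85% to 1.5%, in the same direction as the tumour part, and its part in the order was not tested.

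**Figure D5:**
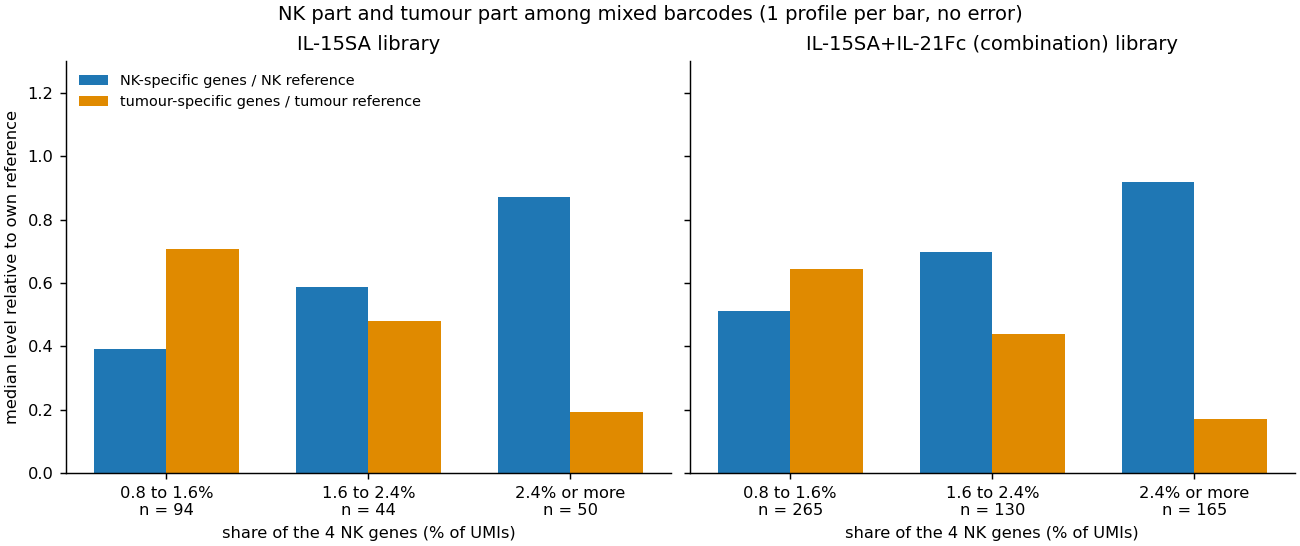
Bars give the median level of NK-specific genes relative to the NK reference and of tumour-specific genes relative to the tumour reference, in mixed barcodes binned by their share of the 4 NK genes. The NK bars rise from 0.394 to 0.871 and from 0.513 to 0.918, while the tumour bars fall from 0.706 to 0.195 and from 0.644 to 0.172.

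Bins of the first share gave the reverse order. From 0.15 to 0.2%, 0.2 to 0.3%, 0.3 to 0.6% and above, Ncr1 was at 961, 855, 600 and 474 CPM in the IL-15SA library and at 1280, 1060, 768 and 500 CPM in the combination library. Myof was at 36.6, 82.8, 193 and 284 CPM, and at 40.4, 67.2, 166 and 274 CPM. The highest bin held 17 and 37 barcodes, and there the tumour part was 0.884 and 0.853 and the NK part 0.231 and 0.304. The parts also varied with depth. Under 1500 UMIs, from there to under 3000 and at 3000 or more, the NK part of the IL-15SA library was 0.682, 0.536 and 0.418 and its tumour part 0.437, 0.549 and 0.572, so deeper mixed barcodes there held relatively more tumour transcript. The combination library gave no steady order, with an NK part of 0.657, 0.775 and 0.538 and a tumour part of 0.474, 0.403 and 0.593. The deepest bins held 24 and 51 barcodes.

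Between the libraries, mixed barcodes differed in more genes than either reference did. Of 6749 genes at 20 CPM or more in mixed barcodes of 1 library, 249 (3.69%) reached a 2-fold higher level with the combination and 307 (4.55%) a 2-fold lower one. In the NK reference these were 7 (0.129%) and 10 (0.184%) of 5434, and in the tumour reference 37 (0.578%) and 51 (0.797%) of 6403. The classes differ in UMIs, and the mixed class has the fewest, so the counts cannot be read as an order of the classes. At 100 CPM or more, 8 genes were higher and 13 lower. Several at the extremes had single-barcode sources, such as Igfbp3 and Fabp4, a fatty acid binding protein, whose 24 UMIs in the combination library were in 1 barcode.

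Some NK genes differed by a similar ratio in the NK reference and others by less. Ccl5 was 2.57-fold higher (2.42 to 2.73) in the combination mixed barcodes, beside 2.38-fold in the NK reference and 1.78-fold in the tumour reference. Levels of Cd7, a surface protein of lymphocytes, were 257 and 547 CPM, which differ 2.13-fold, beside 2.02-fold in the NK reference. Those of Xcl1, a chemokine that draws dendritic cells, were 459 and 1033 CPM, which differ 2.25-fold beside 1.57-fold. Gzmd, a granzyme of strongly stimulated NK cells, went the other way: 154 CPM in IL-15SA and 72.8 in combination mixed barcodes, beside 217 and 91.5 in the NK reference. Ncr1 was 1.31-fold higher (1.16 to 1.48) in mixed barcodes and 1.08-fold higher in the NK reference.

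Single genes that were high in the tumour reference were lower in the combination mixed barcodes, and were chosen after their values were seen. Csf2, which encodes the growth factor GM-CSF, was at 349 CPM in the IL-15SA and 61.6 in the combination mixed barcodes, 5.66-fold lower (4.21 to 7.67). It was at 405 and 36.5 CPM in the tumour references and at 72.2 and 72.6 in the NK references. The IL-15SA value came from 152 UMIs in 31 barcodes, with up to 34 in 1. Cxcl1, a neutrophil chemokine, was 4.11-fold lower (3.28 to 5.17), at 484 and 118 CPM, beside 640 and 250 in the tumour references. Fosb and Egr1, immediate early transcription factors, were 2.4-fold and 1.94-fold lower, but the whole list of immediate early genes summed to 11709 and 10899 CPM. The list of secreted inflammatory genes summed to 5722 and 3300 CPM in mixed barcodes, beside 11127 and 7199 in the tumour references. Ankrd1 differed by less than its counting error, with a ratio of 0.833 (0.574 to 1.22).

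The make-up of the class also differed between the libraries, and moves with these values. Over 371 NK-specific genes of both libraries the median log2 ratio of the combination to the IL-15SA library was 0.37 in mixed barcodes, 0.07 in the NK references and 0.13 in the tumour references. Over 571 tumour-specific genes it was -0.28, 0.40 and -0.08. Combination mixed barcodes thus held relatively more NK and less tumour transcript than IL-15SA ones. At an equal first share of 0.3 to 0.6%, Ccl5 was at 1439 and 4087 CPM, Cyr61 at 959 and 474, and Csf2 at 326 and 59.9, while the NK part in that bin was 0.406 and 0.492. The part of the make-up in these differences was not tested.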

How the data were processed

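Single-cell libraries of sorted NK cells were made with a microwell kit that tags molecules with UMIs, per the labels' protocols. The files deposited by the authors hold raw UMI counts for each gene in each barcode. The submitters' processing notes name cutadapt, featureCounts, Seurat 4, Scanpy and mm10. Aligner, annotation and cell calling: not given in the sources used here. Sample titles set the groups, while the series title names IL-21 with or without IL-15. Of 53715 genes listed, 53620 IDs are in GENCODE M21. Rows of the 118 symbols shared by several IDs were kept apart and were left out of the gene lists. Il2rg, which NK cells need, had 0 UMIs, so a 0 can reflect read assignment, and the mitochondrial share is understated because some mitochondrial genes had almost no UMIs.

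Counts were summed per class and library and scaled to CPM, with no test. Intervals are exact at 95% (Poisson for CPM, conditional binomial for ratios, Clopper-Pearson for shares) and cover counting error only. Scripts were tested on simulated data. Members, references and gene lists were chosen with earlier results of these data known. Genes named were the 4 markers, the genes above or below both references in both libraries, the extremes of each list and of the comparison between libraries, and further genes of the lists; genes at 100 CPM or more, and those given for low or high ratios there, were named after their values were seen. All barcodes were kept. The automatic threshold of Scrublet marked 2 and 0 barcodes, too few to have worked, so no doublets were removed. The libraries shared 60 barcode sequences (0.715% and 0.483%), with 0 members in both, and 2 and 4 members had a barcode that the other library also used. Alternatives changed the thresholds, filters, references and doublet treatment. Python 3.11.15, numpy 2.4.6, pandas 2.3.3, scipy 1.17.1, scanpy 1.11.5 and matplotlib 3.10.9 were used.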

Additional observations from a re-analysis of the deposited data

How the results depend on the processing

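No paired analysis was possible because the libraries carry no replicate numbers and stand alone in their groups, so none was left out. The limits are few UMIs per member and 1 library per group. Of values with alternatives, 1472 of single genes stayed within their counting interval, 354 moved beyond it and 7 turned direction; of the shares, counts and medians, 56 kept their value within the limits set and 50 moved. Values are given for the IL-15SA and then the combination library. By construction, stricter thresholds of the class lower the number of members, and a stricter fold or filter lowers the number of genes. The cause of other changes, among them gene counts that rose with a smaller class, was not tested.

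With a first share of at least 0.3%, members were 0.918% and 1.58% of barcodes, genes below both references 325 and 110, genes above both 302 in the combination library, the NK part 0.397 and 0.471 and the tumour part 0.73 and 0.689. Saa3 was then at 0 of the NK reference in the IL-15SA library and Dcn at 0 of it in the combination library, where Myof and Ogn were at 1.04 and 1.02 of the tumour reference. With a second share of at least 1.6%, members were 1.12% and 2.37%, genes above both 138 and 170, genes below both 414 and 123, the NK part 0.761 and 0.823 and the tumour part 0.335 and 0.305. Flna and Isg15 were then at 0.764 and 0.983 of the NK reference in the IL-15SA library, and Ifit3 at 0.594 of it in the combination library. With at least 3 UMIs of the 6 genes, the combination library had 3.64% members, 85 genes above both and a median of 1534 UMIs, and with at least 6 (chosen after seeing the data) the medians were 2252 and 2081. Without the 5% of barcodes with the highest Scrublet score it had 3.94% members and 107 genes above both.

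A fold of 2 left 65 and 7 genes above both and 27 and 0 below both. With 5 CPM added, the combination library had 27 above and 12 below. Without the CPM filter, 199 were above both in the combination library and 345 and 256 below both. References matched on UMIs gave 187 below both in the IL-15SA library. Chosen after seeing the data, genes at 100 CPM or more gave 3 and 0 above and 0 and 0 below, and leaving out for each gene the member with most of its UMIs gave 89 and 16 above. Within members, genes at least 2-fold higher and lower in the combination library were 36 and 69 at 50 CPM or more, 8 and 13 at 100 CPM or more, 442 and 546 with 186 members of each library matched on UMIs, and 440 and 509 with 187 matched on the first share, where fewer combination members entered.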
